A study of Mus musculus with 24 samples.

Results

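Acod1 and 6 genes that act on its product were examined in bone marrow-derived macrophages (BMDMs) of WT and Irg1-/- mice. Acod1, also named Irg1, is the gene removed in the Irg1-/- animals. The members were chosen by gene symbol, as the rows of the deposited count table whose Ensembl identifiers carry the names Acod1, Slc25a1, Suclg1, Suclg2, Sucla2, Clybl and Auh in GENCODE M21. All 7 were found among the 22165 genes of the table, and all 7 were among the 11878 genes that passed the filter on low counts and were tested.

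Acod1 encodes the mitochondrial enzyme that decarboxylates cis-aconitate, an intermediate of the citric acid cycle, to itaconate, and it is one of the genes that macrophages induce most strongly in response to bacterial lipopolysaccharide (LPS). Slc25a1 encodes the mitochondrial citrate carrier of the inner membrane. Succinyl-CoA ligase can attach coenzyme A to itaconate, and it is built from the alpha subunit Suclg1 with one of a pair of beta subunits, the GTP-forming Suclg2 or the ATP-forming Sucla2. Itaconyl-CoA is then hydrated by Auh, which also acts in leucine breakdown, and the resulting citramalyl-CoA is cleaved by Clybl to acetyl-CoA and pyruvate.

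The cells were grown from bone marrow of C57BL/6N WT mice and of Irg1-/- mice on the same background, aged 8 to 20 weeks, over 7 days with 20 ng/mL M-CSF. Macrophages of each genotype were kept without LPS (group Unstim.) or received LPS at 100 ng/ml. The non-tolerized group LPS 3h, titled Mock/3h_LPS, had 24 h without LPS, 1 h in fresh medium and then a single LPS exposure of 3 h. The group LPS 24h was exposed once for 24 h. No such rest in fresh medium is given for Unstim. or LPS 24h. Comparisons of these groups with rested ones therefore also differ in that rest, whose part was not tested. The tolerized group LPS 24h->LPS 3h had 24 h of LPS, 1 h of rest in fresh medium and a second LPS exposure lasting 3 h, called restimulation here. There were 3 independent cultures in each of the 8 groups, numbered as replicates 1 to 3. The part of Acod1 that the Irg1-/- allele lacks is not given in the sources used here. Effects of the loss before and after LPS was added cannot be told apart.

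The libraries were made from the 3′ ends of polyadenylated transcripts, and 3927378 to 20430359 reads per library were counted on genes. Levels are given as normalized CPM, the count of a gene relative to all reads counted on genes in its library, on the usual CPM scale and adjusted by edgeR's TMM factors. These are levels within 1 gene: the number of reads from a transcript's end does not depend on its length, but it depends on how well that end was primed and mapped, so levels were not ranked between genes. All 8 macrophage markers examined, among them Adgre1, Csf1r and Lyz2, had reads in all 24 libraries, and their summed level was 3319 to 9833 CPM. T cell markers reached at most 1.70 CPM in sum and B cell markers 1.51. Ly6g, a defining marker of neutrophils, was at 0 in 17 of 24 libraries, whereas S100a8 was at 33.05 to 245.9 CPM and the fibroblast gene Col1a2 at 38.3 to 299.8. Ly6g, Elane, Mpo and Camp reached at most 1.66, 3.25, 1.80 and 24.6 CPM. Most of the neutrophil sum given next therefore came from S100a8 and S100a9. The summed level of the 6 neutrophil genes was 349.8 to 625.1 CPM in the Unstim. and LPS 3h libraries and 64.2 to 224.5 CPM in the libraries of both groups with 24 h of LPS. The 3 fibroblast genes likewise summed to 241.2 to 409.6 CPM in the first and to 94.4 to 221.4 CPM in the second set. Each comparison between those sets was made along with these differences, and their part in it was not tested. In RNA from a whole culture, fewer cells of a type and less RNA per cell cannot be told apart.

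The 7 genes differ in the letters around their start sites, and 3 of these windows are shown because they belong to Acod1, the gene with the largest response, and to Suclg2 and Clybl, whose levels differed between LPS treatments in both genotypes. Each window runs from 250 bases before to 50 bases after a transcript start of RefSeq (build GRCm38.p6). The Acod1 window lies on the + strand at chr14:103046762-103047061, and its capitals mark TATAAA, which begins 28 bases before the start, and GGAAATTCC, a match to the kappa-B form GGNNNTTCC that begins 85 bases before it.

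Acod1: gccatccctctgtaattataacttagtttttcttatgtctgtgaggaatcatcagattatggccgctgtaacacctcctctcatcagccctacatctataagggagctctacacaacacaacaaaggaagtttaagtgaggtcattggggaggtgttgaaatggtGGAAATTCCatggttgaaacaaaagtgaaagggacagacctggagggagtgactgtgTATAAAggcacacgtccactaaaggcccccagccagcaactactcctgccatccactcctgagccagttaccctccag

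The Suclg2 window lies on the - strand at chr6:95718797-95719096 and that of Clybl on the + strand at chr14:122181444-122181743. Capitals in both mark GGGCGG, the GC box, and CCAAT, each on either strand.

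Suclg2: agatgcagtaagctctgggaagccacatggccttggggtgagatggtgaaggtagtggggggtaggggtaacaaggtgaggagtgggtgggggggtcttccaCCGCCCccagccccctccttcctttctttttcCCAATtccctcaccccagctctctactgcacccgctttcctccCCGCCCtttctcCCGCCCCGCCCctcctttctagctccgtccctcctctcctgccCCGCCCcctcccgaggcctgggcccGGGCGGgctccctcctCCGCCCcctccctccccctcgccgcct

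Clybl: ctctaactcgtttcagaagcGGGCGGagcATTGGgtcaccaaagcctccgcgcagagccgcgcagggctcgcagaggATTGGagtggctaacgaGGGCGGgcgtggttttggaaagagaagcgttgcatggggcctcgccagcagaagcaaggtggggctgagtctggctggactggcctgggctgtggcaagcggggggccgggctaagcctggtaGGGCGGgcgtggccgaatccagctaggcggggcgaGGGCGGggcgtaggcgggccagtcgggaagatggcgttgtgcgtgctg

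The motifs were picked after the Acod1 window had been seen, and both strands were searched. TATAAA was found in Acod1 and in no other member, and it occurs in 13.6% of 32544 mouse promoter windows of the same length. GGGCGG was found in 5 of the 7 members, all except Acod1 and Suclg1, against 35.9% of all windows, and it occurs 7 times in Suclg2, where 1 pair of matches overlaps, and 4 times in Clybl. GGNNNTTCC was found in Acod1, Suclg1 and Suclg2 and in 18.5% of all windows. TGANTCA, the AP-1 site (7.79% of all windows), was found in no member, and the core of the interferon response element (3.45%) was found in Suclg2 alone, there beside the CCAAT match. CCAAT itself was found in 4 members and in 37.4% of windows, and the E-box CACGTG in Slc25a1 alone and in 7.17%. G and C made up 47% of the letters in the Acod1 window, 67.7% in Suclg2 and 67.3% in Clybl. These matches describe letters and not binding.

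Acod1 was induced by LPS in WT macrophages, was lower at 24 h than at 3 h, and stood between those levels after restimulation. The gene is annotated at chr14:103046977-103056573 on the + strand (ENSMUSG00000022126.6). Its level in WT Unstim. cultures was 9.41, 5.82 and 10.0 CPM in replicates 1, 2 and 3. After LPS 3h it was 22837, 28063 and 15643 CPM, which is 1.06% to 1.93% of all reads counted on genes in those libraries. All 3 stimulated cultures were above all Unstim. cultures, by 11.35 on the log2 scale (SE 0.69, adjusted p = 2.56e-14, quasi-likelihood test of edgeR, adjusted by Benjamini-Hochberg over all genes tested, as for every adjusted p given here unless another test is named).

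After LPS 24h the WT level was 3794, 4015 and 5799 CPM. Each of these was below each LPS 3h culture and far above Unstim., and the difference from LPS 3h was -2.29 (log2 fold change, SE 0.47, edgeR adjusted p = 3.51e-04). Against Unstim. the level at 24 h was higher by 9.06 (SE 0.64, edgeR adjusted p = 2.27e-12).

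In tolerized WT cultures, restimulation gave 11389, 10381 and 16122 CPM. All 3 were above all 3 LPS 24h cultures, with a log2 fold change of 1.48 (SE 0.46), but the adjusted p of edgeR's test was 0.0629 and the difference did not pass. It passed with the library pool as a term (adjusted p = 0.0139), with no filter on low counts (0.00155) and in DESeq2's Wald test (0.0218). In the WT libraries of pools 1, 2 and 4 taken alone, with 1 culture a side, this difference was 1.59, 1.37 and 1.48. Against non-tolerized LPS 3h cultures the groups overlapped, since replicate 3 of the tolerized cultures was above replicate 3 of the LPS 3h cultures, and the log2 fold change was -0.81 (95% interval -1.77 to 0.14, edgeR adjusted p = 0.188).

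**Figure D1:**
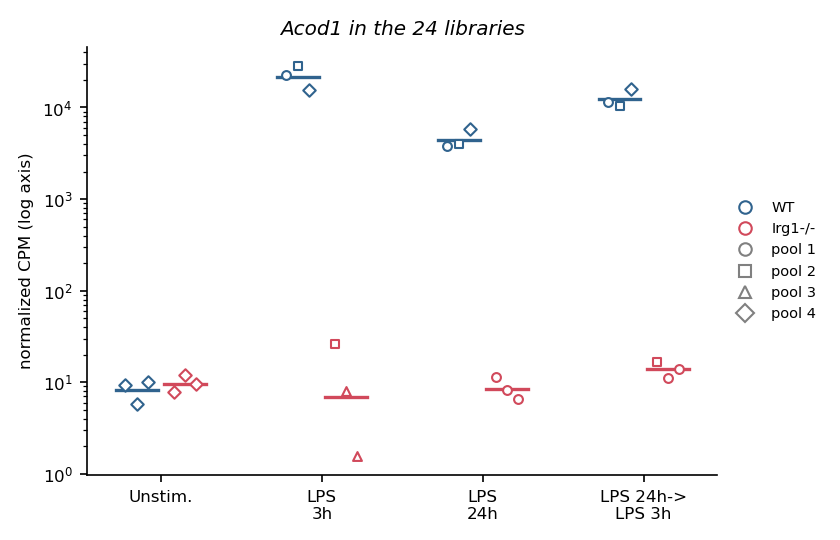
Acod1 level (normalized CPM, log axis) in the 24 libraries by treatment; each point is 1 culture, its shape gives the library pool and the bars are geometric means of 3. WT cultures given LPS lie between 3794 and 28063 CPM, while all Irg1-/- cultures and WT Unstim. cultures lie between 1.58 and 26.4 CPM.

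In Irg1-/- macrophages Acod1 remained far below the LPS-treated WT cultures in every library. It was 7.79, 11.9 and 9.64 CPM in Unstim. cultures, where it overlapped the WT values (log2 fold change 0.20, SE 0.47, edgeR adjusted p = 1). It was 26.4, 7.94 and 1.58 CPM after LPS 3h, 11.5, 8.20 and 6.54 CPM after LPS 24h and 16.7, 11.2 and 14.1 CPM after restimulation. No response of Acod1 to LPS passed the test in this genotype. Against WT it was different by -10.82 (SE 0.68) after LPS 3h, -9.02 (SE 0.64) at 24 h and -9.82 (SE 0.66) after restimulation, as log2 fold changes, with no overlap in any of the 3, and edgeR's adjusted p was 2.68e-12, 5.85e-11 and 1.33e-11.

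The few reads that remained in Irg1-/- cultures were not spread evenly over the library pools. Each library's description begins with a prefix from MB_1 to MB_4, called its pool here, and the labels do not say what it marks. All Unstim. libraries of both genotypes were in pool 4, which held no Irg1-/- library given LPS. Irg1-/- LPS 3h and LPS 24h libraries shared no pool either. From the Irg1-/- libraries alone, comparisons of LPS with Unstim. and of LPS 24h with LPS 3h therefore cannot be told apart from pool. Fits with the pool as a term also use the WT libraries and assume that a pool shifts both genotypes alike. That assumption was not tested. In pools 1, 2 and 4, which also held LPS-treated WT cultures with 255248, 388182 and 378437 Acod1 reads in sum, each Irg1-/- or WT Unstim. library held 117 to 186, 229 to 256 and 50 to 206 reads. Pool 3 held 2 libraries, Irg1-/- LPS 3h replicates 2 and 3, and no WT library, and these had 50 and 9 Acod1 reads. The lowest and the highest residual level both came from Irg1-/- LPS 3h, replicate 3 in pool 3 and replicate 1 in pool 2. Whether these reads came from the knockout cells or from other libraries of a pool was not tested. Without Irg1-/- LPS 3h replicate 1, Acod1 in this genotype was higher in tolerized than in LPS 3h cultures by 1.52 (log2, edgeR adjusted p = 0.017), against 0.19 (adjusted p = 0.792) with it. Without replicate 3 of the same group, Acod1 was lower at 24 h than at 3 h by 1.06 on the log2 scale, with an adjusted p of 0.0455, against 0.439 with it.

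Among the subunits of succinyl-CoA ligase, Suclg2 was the one whose level fell with long exposure to LPS, and it did so in both genotypes. The gene lies at chr6:95473009-95718800 on the - strand. In WT cultures its level was 26.7, 42.5 and 29.7 CPM in Unstim., 37.2, 39.5 and 34.3 CPM after LPS 3h, 17.4, 17.9 and 15.6 CPM after LPS 24h and 10.4, 12.1 and 13.3 CPM after restimulation. The 6 cultures that had received LPS for 24 h were all below the 6 that had not. In Irg1-/- cultures it was 36.6, 51.3 and 62.5 CPM in Unstim., 29.8, 36.8 and 26.0 CPM after LPS 3h, 12.0, 21.2 and 23.2 CPM after LPS 24h and 12.0, 18.1 and 15.6 CPM after restimulation. Here too the 6 long-exposed cultures were all below the other 6.

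Suclg2 fell by 0.96 on the log2 scale (SE 0.30, edgeR adjusted p = 0.0262) from Unstim. to LPS 24h in WT. It fell by 1.41 in Irg1-/- (SE 0.30, edgeR adjusted p = 0.00106). The WT decrease missed the threshold when any 1 of the 3 LPS 24h cultures was left out, with adjusted p of 0.0552 to 0.0628, and without Unstim. replicate 2, where it was -0.75 with an adjusted p of 0.153. It also missed it with the library pool as a term (-0.98, adjusted p = 0.0636) and with no filter on low counts (0.0625). Between LPS 3h and LPS 24h it fell by 1.13 in WT (SE 0.30, edgeR adjusted p = 0.00511), and the Irg1-/- difference was -0.71 (SE 0.30, edgeR adjusted p = 0.064), which passed without LPS 24h replicate 3 (0.0387) or without LPS 3h replicate 3 (0.0441), and in DESeq2's Wald test (-0.81, 0.0194). In the WT libraries of pools 1, 2 and 4 taken alone, with 1 culture a side, that difference was -1.09, -1.14 and -1.13.

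The tolerized cultures had the lowest mean Suclg2 level in both genotypes, although those of Irg1-/- overlapped LPS 24h and the difference from LPS 24h did not pass in either genotype (WT -0.50, adjusted p = 0.429, Irg1-/- -0.31, adjusted p = 0.732). Compared with non-tolerized LPS 3h cultures, Suclg2 was lower after LPS 24h->LPS 3h by 1.63 in WT (log2, SE 0.31, edgeR adjusted p = 1.92e-04) and by 1.02 in Irg1-/- (SE 0.30, adjusted p = 0.0121), with no overlap in either. With the library pool as a term the Irg1-/- value was -1.02 with an adjusted p of 0.155, and without tolerized replicate 1 it was -0.91 with an adjusted p of 0.0616. Comparisons with LPS 3h share their LPS 3h libraries, and those with Unstim. share the Unstim. libraries, so they are not separate evidence. The genotypes did not differ detectably in any of these responses, and the largest difference in response was -0.87 (SE 0.42, edgeR adjusted p = 0.869, LPS 3h against Unstim.).

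Sucla2, the other beta subunit, showed no such decrease. It lies at chr14:73525319-73596142, and its counts are uncertain because use of strand in counting is not given in the sources used here. WT levels were 26.9, 27.2 and 40.7 CPM in Unstim., 27.3, 23.1 and 23.4 CPM after LPS 3h, 55.8, 32.1 and 22.6 CPM after LPS 24h and 32.2, 225 and 44.7 CPM after restimulation. The 225 CPM of WT LPS 24h->LPS 3h replicate 2 stood above all other libraries, the next highest being 59.6 CPM in an Irg1-/- LPS 24h culture. Irg1-/- levels were between 19.1 and 59.6 CPM in all 12 cultures, and each of its 4 groups overlapped each other group.

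Sucla2 passed the test in 1 comparison, where tolerized WT cultures were higher than LPS 3h cultures by 2.03 (log2, SE 0.50, edgeR adjusted p = 0.00282). That call rested on the library at 225 CPM. Without it the value was 0.62 with an adjusted p of 0.30. The genotype difference after restimulation was -1.49 (SE 0.49, edgeR adjusted p = 0.282), and it too involves that library. Restimulation against LPS 24h in WT, at 1.45 (adjusted p = 0.0921), passed when LPS 24h replicate 1 or tolerized replicate 1 or 3 was left out, with adjusted p of 0.0493, 0.0189 and 0.0391, all with the high library in the fit.

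Suclg1, the alpha subunit at chr6:73248382-73276911, did not pass the test in any comparison. Its level ranged from 12.7 to 46.4 CPM over the 12 WT cultures and from 21.6 to 58.3 CPM over the 12 Irg1-/- cultures. Groups did not overlap in WT between LPS 3h (25.7, 17.7 and 31.4 CPM) and Unstim. (34.5, 34.6 and 39.7 CPM), where the log2 fold change was -0.54 (95% interval -1.34 to 0.26, edgeR adjusted p = 0.296). They also did not overlap in Irg1-/- between LPS 24h->LPS 3h (26.0, 24.9 and 22.2 CPM) and LPS 24h (39.1, 37.6 and 28.2 CPM), where it was -0.52 (95% interval -1.32 to 0.27, adjusted p = 0.584).

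The number of Suclg2 reads per Sucla2 read in the same library does not depend on the scaling between libraries. In WT its median was 0.993 in Unstim. (range 0.730 to 1.56) and 1.46 after LPS 3h (1.36 to 1.71). It was 0.557 after LPS 24h (0.312 to 0.688) and 0.298 after restimulation (0.0538 to 0.323). In Irg1-/- the medians were 1.56 (range 1.31 to 2.28), 1.03 (0.597 to 1.93), 0.390 (0.206 to 0.853) and 0.505 (0.286 to 0.524) in the same order. The ratio was below 1 in all 12 libraries of cultures exposed to LPS for 24 h, and it was at least 0.597 in the 12 others. In WT these sets did not overlap (at most 0.688 against at least 0.730). They overlapped in Irg1-/-, where LPS 24h replicate 2 was at 0.853 and LPS 3h replicate 1 at 0.597. Each ratio compares priming and mapping as well as transcripts, so only its change between groups can be read.

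**Figure D2:**
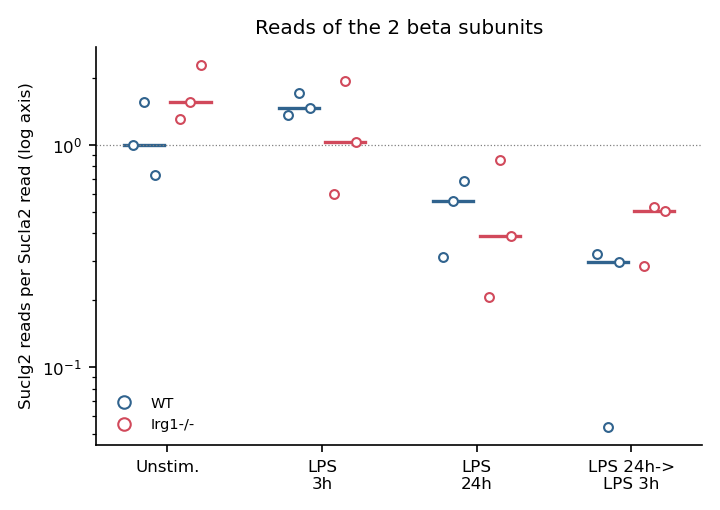
Reads of Suclg2 per read of Sucla2 (log axis) in each library by treatment, with WT in blue and Irg1-/- in red; bars are medians of 3 and the dotted line marks equal reads. All cultures exposed to LPS for 24 h lie below the line, as do some of the others. The lowest point, 0.0538, is WT LPS 24h->LPS 3h replicate 2, the library with the high Sucla2 level.

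Clybl, the lyase at the end of the route, was lower 3 h after LPS and higher again at 24 h. The gene lies at chr14:122181704-122402234 and is overlapped on the opposite strand by 1700108J01Rik, Gm5089 and Gm25464, so its counts carry the same uncertainty about strand. WT levels were 30.5, 18.1 and 12.0 CPM in Unstim., 5.10, 10.3 and 3.97 CPM after LPS 3h, 12.3, 21.8 and 15.7 CPM after LPS 24h and 11.1 CPM in each culture after restimulation. The LPS 3h cultures were below all other WT cultures. In Irg1-/- the levels were 13.4, 14.1 and 45.4 CPM in Unstim., 5.87, 14.8 and 7.56 CPM after LPS 3h, 30.1, 33.0 and 20.2 CPM after LPS 24h and 18.2, 12.0 and 11.2 CPM after restimulation. LPS 3h overlapped Unstim. in this genotype and did not overlap LPS 24h.

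From Unstim. to LPS 3h Clybl fell by 1.63 on the log2 scale in WT (SE 0.46, edgeR adjusted p = 0.00653) and by 1.40 in Irg1-/- (SE 0.46, edgeR adjusted p = 0.0168). The Irg1-/- decrease rested on the Unstim. culture at 45.4 CPM, without which it was -0.52 with an adjusted p of 0.399, it was -2.67 (adjusted p = 0.0178) with the library pool as a term, and it missed the threshold without LPS 3h replicate 1 (-1.09, adjusted p = 0.108) or replicate 3 (-1.23, adjusted p = 0.0787). The WT decrease missed the threshold without Unstim. replicate 1 (-1.18, adjusted p = 0.0767) or LPS 3h replicate 3 (-1.33, adjusted p = 0.0576). From LPS 3h to LPS 24h Clybl rose by 1.35 in WT (SE 0.46, edgeR adjusted p = 0.0247) and by 1.57 in Irg1-/- (SE 0.46, edgeR adjusted p = 0.00798). The WT call was lost without LPS 3h replicate 1 (1.14, adjusted p = 0.106) or replicate 3 (1.02, 0.150) and without LPS 24h replicate 2 (1.04, 0.132) or replicate 3 (1.29, 0.0541). In Irg1-/- the call was lost without LPS 3h replicate 1 (1.23, adjusted p = 0.0704) or replicate 3 (1.37, adjusted p = 0.0503). After restimulation the Irg1-/- cultures were all below LPS 24h, with a log2 fold change of -1.01 (SE 0.44, edgeR adjusted p = 0.239) that did not pass, except with the compared groups alone in the fit (adjusted p = 0.0447).

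Auh, the hydratase before Clybl, had its lowest mean level after LPS 3h in both genotypes, as Clybl did. It lies at chr13:52835119-52929681. WT levels were 19.8, 16.0 and 12.0 CPM in Unstim., 9.66, 10.2 and 6.36 CPM after LPS 3h, 20.6, 13.5 and 7.83 CPM after LPS 24h and 16.3, 13.5 and 6.14 CPM after restimulation. In each WT treatment with LPS the lowest level was that of replicate 3, which was in pool 4, while replicates 1 and 2 were in pools 1 and 2. Irg1-/- levels were 19.0, 22.1 and 11.3 CPM in Unstim., 11.7, 8.26 and 7.39 CPM after LPS 3h, 23.1, 18.5 and 18.3 CPM after LPS 24h and 11.0, 10.6 and 7.82 CPM after restimulation.

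Auh was higher in Irg1-/- cultures at 24 h than at 3 h by 1.12 (log2, SE 0.39, edgeR adjusted p = 0.0254), with no overlap. The call was lost in 4 of the 6 fits without 1 culture, those without LPS 24h replicate 1 or 2 or LPS 3h replicate 2 or 3, with adjusted p of 0.0536 to 0.114. With the library pool as a term the value was 0.65 with an adjusted p of 0.461, and all 3 LPS 24h libraries of this genotype were in pool 1, which held no LPS 3h library of it. The same comparison in WT gave 0.67 (SE 0.39, adjusted p = 0.193). Between Unstim. and LPS 3h the values were -0.87 in WT (adjusted p = 0.0896) and -0.92 in Irg1-/- (adjusted p = 0.069), and neither passed. With the library pool as a term the WT value was -1.57 and passed (adjusted p = 0.00259). The Irg1-/- value passed without Unstim. replicate 3 (-1.12, adjusted p = 0.0381). After restimulation the Irg1-/- cultures were all below LPS 24h, by a log2 fold change of -1.03 (SE 0.39, edgeR adjusted p = 0.141), which passed with the compared groups alone in the fit (0.0245) and with a replicate block (0.0339).

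Slc25a1, at chr16:17925223-17928219, did not pass in any comparison. WT levels were 10.2, 14.3 and 18.4 CPM in Unstim., 19.0, 14.9 and 14.0 CPM after LPS 3h, 36.5, 16.3 and 14.7 CPM after LPS 24h and 31.7, 34.0 and 15.5 CPM after restimulation. Irg1-/- levels were 31.9, 13.6 and 14.0 CPM in Unstim., 16.3, 16.4 and 11.4 CPM after LPS 3h, 23.7, 25.0 and 16.0 CPM after LPS 24h and 25.0, 23.6 and 16.9 CPM after restimulation. The cultures above 30 CPM, 2 of the tolerized and 1 of the LPS 24h cultures in WT and 1 of the Unstim. cultures in Irg1-/-, each stood beside a replicate below 20 CPM. The largest difference between treatments was 0.76 in WT (LPS 24h->LPS 3h against LPS 3h, 95% interval -0.06 to 1.59, edgeR adjusted p = 0.152). The same comparison in Irg1-/- did not overlap and gave 0.57 (95% interval -0.25 to 1.39, adjusted p = 0.281).

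**Figure D3:**
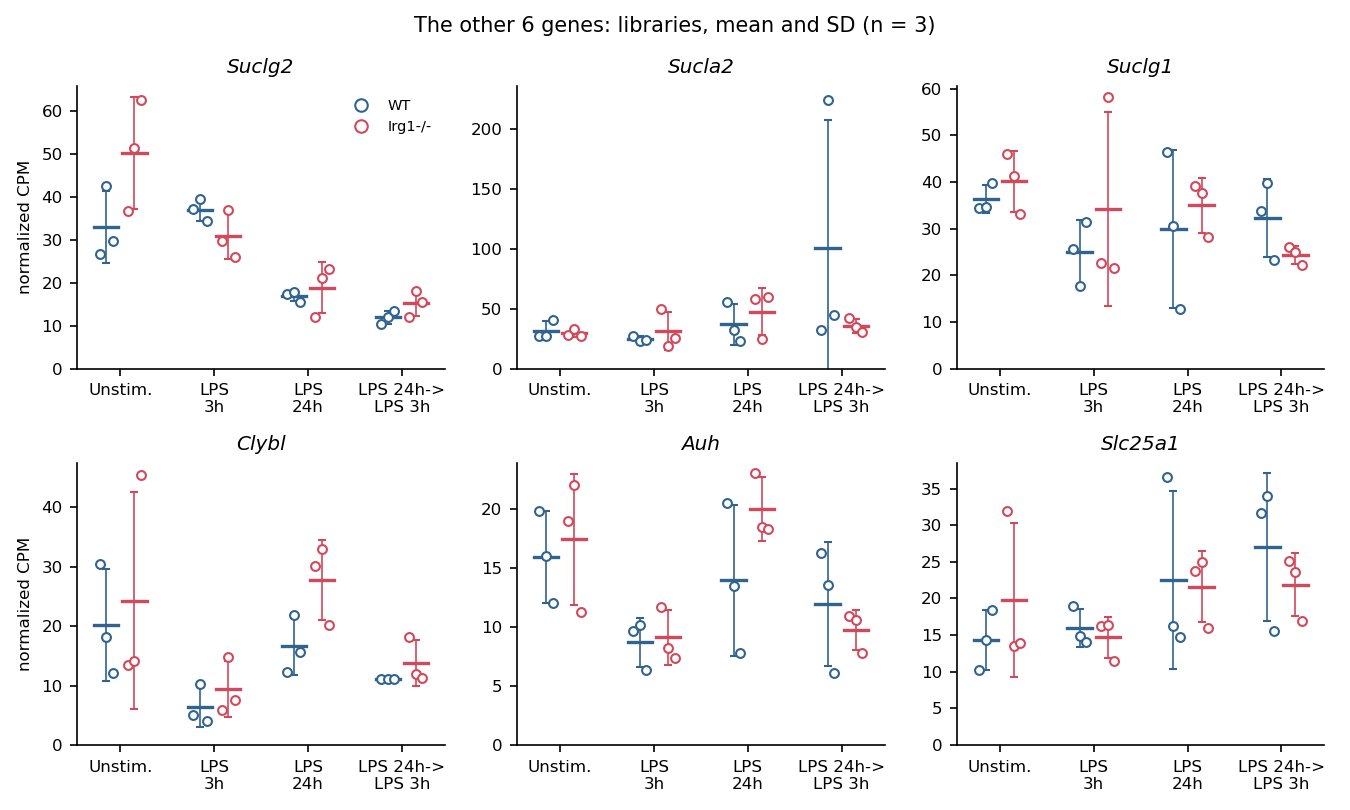
Levels of the 6 other genes (normalized CPM, linear axes from 0) by treatment, WT in blue and Irg1-/- in red; points are cultures, bars the mean and SD of 3, cut off at 0 where the SD exceeds the mean. Suclg2 is lower in both LPS groups exposed for 24 h, Clybl is lowest after LPS 3h, and 1 Sucla2 library stands at 225 CPM.

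Beyond Acod1 itself, loss of Irg1 was not accompanied by a detectable difference in these genes. In Unstim. 0 of the 7 members passed between genotypes, where 0.0421% of the 11878 genes tested did. Only Acod1 passed in the LPS treatments, where 0.00842% of genes passed after LPS 3h, 0.598% at 24 h and 0.118% in the tolerized cultures. In the mean over the 3 LPS treatments, in which 0.337% of genes passed, Acod1 was lower by 9.89 (log2, SE 0.38, edgeR adjusted p = 1.89e-18) and the other 6 did not pass. At an unadjusted p under 0.05 in edgeR's test, Suclg2 in Unstim. (log2 fold change 0.61, adjusted p = 0.953) and Sucla2 after restimulation (-1.49, adjusted p = 0.282) were the 2 differences among the other 6 in single treatments, and 5.2% and 7.88% of all genes fell under that value there. With no filter on low counts Sucla2 passed after restimulation (adjusted p = 0.00652), and no other of the 6 passed under the alternatives tried that left all libraries in.

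These differences had intervals that leave room for moderate effects. Averaged over the 3 LPS treatments, the log2 fold change of Irg1-/- against WT was 0.53 for Clybl (95% interval -0.03 to 1.08, edgeR adjusted p = 0.499). It was -0.16 for Slc25a1 (-0.63 to 0.31), 0.09 for Suclg1 (-0.37 to 0.55), 0.08 for Suclg2 (-0.29 to 0.45), -0.25 for Sucla2 (-0.84 to 0.33) and 0.10 for Auh (-0.37 to 0.58). The Clybl values in the single treatments were 0.52 at 3 h, 0.74 at 24 h and 0.32 after restimulation, none of which passed, and its WT and Irg1-/- levels overlapped in the first 2. In simulated counts for Irg1-/- against WT after LPS 24h, 18 of 100 genes changed by a fold of 2 and 64 of 99 changed by a fold of 4 were called, so a change by a fold of 2 would often have been missed.

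The difference between genotypes in a response passed for Acod1 and for no other member. It was -11.02 (log2, SE 0.78, edgeR adjusted p = 6.6e-11) for LPS 3h against Unstim., where 0.00842% of genes passed, and -9.22 (SE 0.75, adjusted p = 2.43e-09) for LPS 24h against Unstim., where 0.21% did. For LPS 24h against LPS 3h the Acod1 value was 1.80 (SE 0.65, adjusted p = 0.53), and for the tolerized cultures it was -0.80 against LPS 24h and 1.01 against LPS 3h, with adjusted p of 0.826 and 0.805. No member passed in these 3, where 0%, 0.00842% and 0% of genes did, while 769 and 859 genes had an unadjusted p under 0.05 in the first and the last and DESeq2's Wald test called 21 and 31. With no filter on low counts the Sucla2 differences after restimulation, -1.87 against LPS 24h and -1.84 against LPS 3h, passed with adjusted p of 0.0207 and 0.0454, again with the library at 225 CPM in the fit.

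Read against all genes, the members did not stand out by how many of them responded to LPS. In WT 2 of 7 passed at 3 h (32% of all genes tested), with Acod1 higher and Clybl lower, and 2 of 7 at 24 h against Unstim. (16.2%), with Acod1 higher and Suclg2 lower. At 24 h against 3 h 3 of 7 passed in WT (32.3%) with Acod1 and Suclg2 lower and Clybl higher. After restimulation 0 of 7 passed against LPS 24h (3.99%) and 2 of 7 against LPS 3h (25.5%). In Irg1-/- the counts in the same order were 1 of 7 (35.9%), 1 of 7 (13.7%), 2 of 7 (35%), 0 of 7 (5.14%) and 1 of 7 (27.2%). The median log2 fold change of the 7 members in WT was -0.36 at 3 h against Unstim., where that of all genes was -0.18, and 0.49 at 24 h against 3 h, where that of all genes was 0.14.

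**Figure D4:**
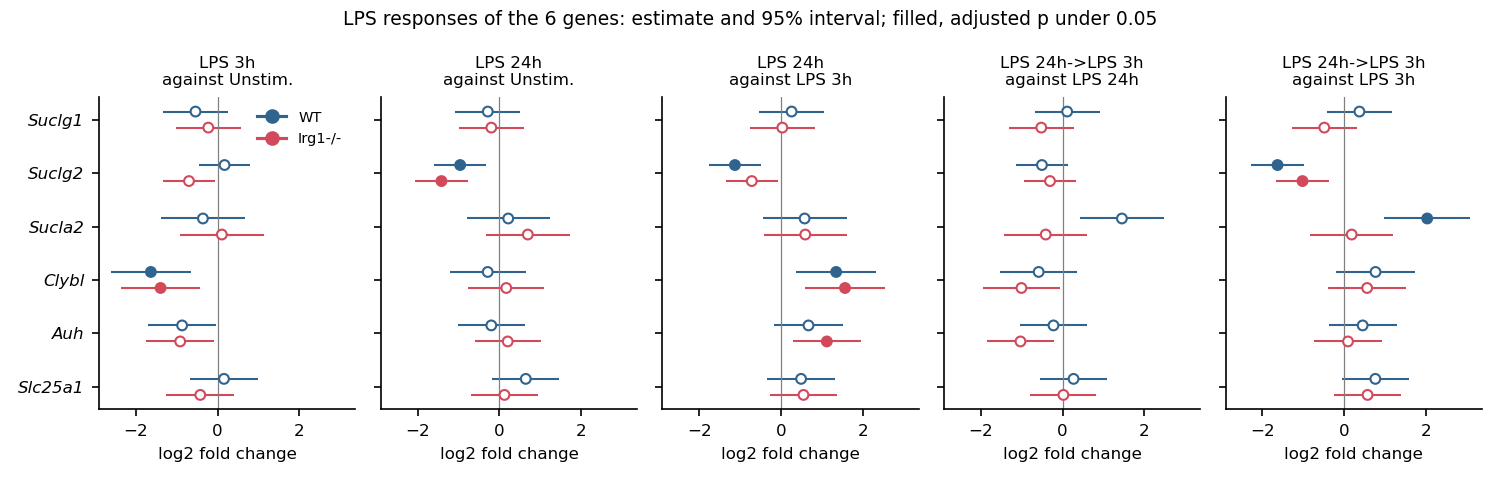
Log2 fold changes of the 6 genes other than Acod1 in the 5 comparisons of treatments, WT in blue and Irg1-/- in red, with 95% intervals; filled points passed an adjusted p under 0.05 in edgeR's test. Suclg2 lies to the left in the comparisons of long with short or no exposure, Clybl moves from the left at 3 h to the right at 24 h, and the intervals of the genotypes overlap for every gene and comparison shown.

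The other genes of the pathway were taken from lists of 12 genes from citrate to succinyl-CoA, 4 of succinate dehydrogenase, 5 carriers and receptors of dicarboxylates and 10 of coenzyme A transfer and propionate breakdown, and all but Oxgr1 were tested. None of them passed between genotypes in any treatment, or for a difference between genotypes in a response, but with no filter on low counts 2 were higher in Irg1-/- in the mean over the 3 LPS treatments. With the library pool as a term, fewer pathway genes passed in some Irg1-/- comparisons. Their number went from 10 to 5 for LPS 3h against Unstim., from 5 to 1 for LPS 24h against LPS 3h and from 6 to 0 for LPS 24h->LPS 3h against LPS 3h. These counts were not set against all genes called in the same fits. In the last comparison the Slc13a3 value moved little (3.43 without the term, 3.25 with it), while that of Idh3a changed sign (0.44 with it). Few treatments of this genotype share a pool, so there treatment and pool were only partly told apart. Of the 12, 1 was higher and 2 were lower in WT after LPS 3h, where 32% of all genes passed, and 1 was higher and 3 were lower in Irg1-/-, where 35.9% did. Idh1, the cytosolic isocitrate dehydrogenase, was at 160, 211 and 225 CPM in WT Unstim. cultures and at 93.9, 57.6 and 64.3 CPM after LPS 3h, all of them lower. It fell by 1.47 in WT (log2, SE 0.32, edgeR adjusted p = 5.22e-04) and by 1.84 in Irg1-/- (SE 0.32, adjusted p = 3.42e-05). The mitochondrial Idh2 fell by 1.25 (adjusted p = 0.00799) and 1.33 (0.00457). Dld, the subunit shared by the alpha-keto acid dehydrogenases, rose by 0.89 (adjusted p = 0.012) and 1.45 (1.16e-04), and Acly, which splits exported citrate, fell in Irg1-/- by 1.09 (0.00548).

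At 24 h against Unstim., 0 of the 12 were higher and 2 were lower in WT, where 16.2% of all genes passed and Idh1 fell by 1.54 (adjusted p = 6.14e-04) and Idh2 by 1.08 (0.0353). The Idh2 call was lost with no filter on low counts (0.0649), with the compared groups alone (0.0524), with the library pool as a term (0.0506) and with pool and replicate block together (0.0842). In Irg1-/- (13.7% of all genes) 0 were higher and 1 was lower, as Idh1 fell by 1.68 (2.65e-04). Between 3 h and 24 h, Acly rose by 0.85 in WT (adjusted p = 0.0295) and 1.15 in Irg1-/- (0.00349), while Dld fell by 0.82 (0.0214) and 0.74 (0.0346), and no other of the 12 passed. The WT calls were lost with no filter (Acly 0.0693, Dld 0.066) and with the compared groups alone (Acly 0.0703, Dld 0.0585), and that of Dld in Irg1-/- with no filter (0.106), the compared groups alone (0.0573) and the pool as a term (0.198). With the pool as a term the Acly value in Irg1-/- was 0.75 with an adjusted p of 0.31. Tolerized against LPS 3h in Irg1-/-, Acly rose by 1.11 (adjusted p = 0.00656) and Idh3a fell by 1.76 (0.0127). The Idh3a value involved 1 LPS 3h library at 90.1 CPM against 11.9 and 19.4 CPM in its replicates, and with the library pool as a term it was 0.44 with an adjusted p of 0.743.

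Of the 4 succinate dehydrogenase subunits, which itaconate inhibits, none passed in WT in any comparison. Sdhb, the iron-sulfur subunit, passed in Irg1-/-, where it was lower by 0.95 at 3 h (log2, edgeR adjusted p = 0.0487), rose by 1.55 between 3 h and 24 h (0.00189) and was higher by 1.10 in tolerized than in LPS 3h cultures (0.0282). The 3 h call was lost under 8 alternatives, among them DESeq2's Wald test (0.052), DESeq2 size factors (0.06), TMM without the 20 genes with the most counts (0.0592), a mean of at least 10 counts (0.0594), the compared groups alone (0.0816) and the library pool as a term (0.118), and with the pool the later calls were lost too (0.0952 and 0.304). Whether the genotypes differed here was tested as for the members, and the difference in response did not pass in any of these comparisons.

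Of the 4 carriers tested, 2 passed in both genotypes between LPS 3h and LPS 24h (32.3% of all genes in WT, 35% in Irg1-/-). The same 2 passed between LPS 3h and LPS 24h->LPS 3h (25.5% and 27.2% of all genes), and both were higher after the longer exposure. Slc13a3, a sodium-coupled importer of dicarboxylates in the plasma membrane, was at 0, 0 and 0.878 CPM in WT Unstim. cultures, 2.00, 2.13 and 0 CPM after LPS 3h, 12.7, 5.54 and 9.55 CPM after LPS 24h and 16.4, 16.6 and 11.5 CPM after restimulation. In Irg1-/- it was at 0, 0 and 0.856 CPM, 2.47, 1.91 and 3.17 CPM, 27.7, 21.5 and 21.4 CPM, and 24.2, 38.5 and 18.4 CPM in the same order. All cultures exposed to LPS for 24 h were above all others, and at both late times every Irg1-/- culture was above every WT culture. At 24 h against Unstim. it rose by 4.69 in WT (log2, SE 0.82, edgeR adjusted p = 6.47e-05) and by 5.73 in Irg1-/- (SE 0.86, adjusted p = 7.67e-06), where the Unstim. level rested on 18 and 16 reads in 1 culture each. It was also higher at 24 h than at 3 h, by 2.75 (adjusted p = 0.00568) and 3.22 (7.96e-04), and higher at 3 h than in Unstim. in Irg1-/- by 2.50 (0.0233). This last call was lost with the compared groups alone (0.0905), the library pool as a term (0.321) and pool and replicate block together (0.469). The genotype difference was 1.35 at 24 h (edgeR adjusted p = 0.479) and 0.87 after restimulation (0.826), and neither passed. With 3 cultures a side, complete separation of the genotypes has an exact permutation p of 0.1. How many of all genes show such separation was not counted.

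Slc25a11, which exchanges alpha-ketoglutarate and malate across the inner mitochondrial membrane, was at 28.1, 37.0 and 26.1 CPM in WT LPS 3h cultures and at 87.5, 71.7 and 46.7 CPM after LPS 24h, with no overlap. It rose over that interval by 1.17 in WT (log2, SE 0.30, edgeR adjusted p = 0.00351) and by 1.27 in Irg1-/- (adjusted p = 0.00152), and it was lower at 3 h than in Unstim. by 1.00 in Irg1-/- (0.0104). With the library pool as a term the Irg1-/- rise was 1.04 with an adjusted p of 0.106. In tolerized against LPS 3h cultures Slc25a11 was higher by 0.84 in WT (adjusted p = 0.0398) and 1.15 in Irg1-/- (0.00498). The WT call was lost with DESeq2 size factors (0.0603), with no filter on low counts (0.0672), with a mean of at least 10 counts (0.0505) and with the compared groups alone (0.108), and the Irg1-/- call with the pool as a term (0.182). Slc13a3 was higher there by 3.43 in each genotype (adjusted p = 0.00107 in WT and 6.13e-04 in Irg1-/-). With the library pool as a term the Irg1-/- values of Slc13a3 were 2.96 for LPS 24h and 3.25 for LPS 24h->LPS 3h against LPS 3h, with adjusted p of 0.111 and 0.0771.

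**Figure D5:**
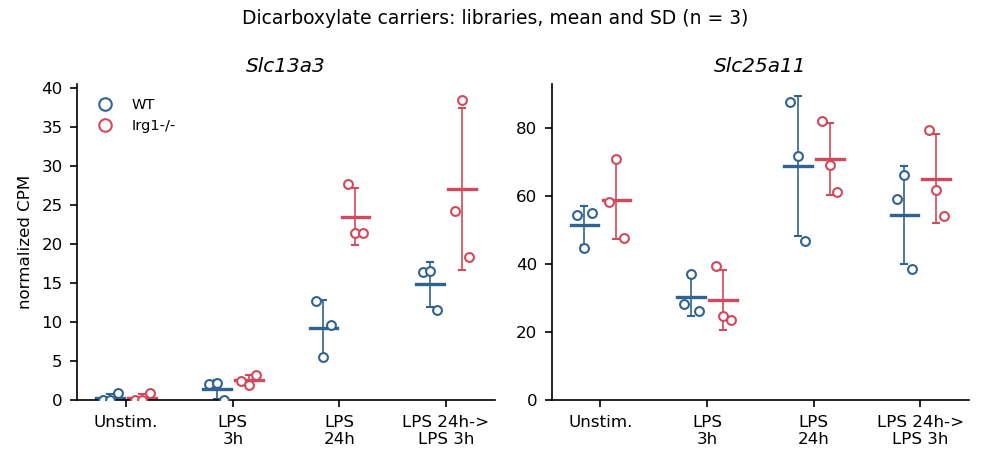
Levels of Slc13a3 and Slc25a11 (normalized CPM, linear axes from 0) by treatment, WT in blue and Irg1-/- in red; points are cultures and bars the mean and SD of 3, cut off at 0. Slc13a3 was near 0 in Unstim. and reached 5.54 to 38.5 CPM in cultures exposed to LPS for 24 h, and Slc25a11 was lowest after LPS 3h.

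Among the 10 genes of coenzyme A transfer and cobalamin-dependent propionate breakdown, 1 was higher and 0 were lower in WT at 3 h (32% of all genes) and 1 was higher and 2 were lower in Irg1-/- (35.9%). At 24 h against Unstim. 0 were higher and 2 were lower in each genotype (16.2% and 13.7% of all genes). Oxct1, which moves coenzyme A from succinyl-CoA to ketone bodies, was at 400, 320 and 400 CPM in WT Unstim. cultures and at 145, 129 and 69.8 CPM after LPS 24h. It fell by 1.70 (log2, SE 0.28, edgeR adjusted p = 3.23e-05), and in Irg1-/- by 1.29 (adjusted p = 0.00118). It was also lower at 24 h than at 3 h in WT by 1.07 (0.00363). Pccb, a subunit of propionyl-CoA carboxylase, fell from Unstim. to LPS 24h by 1.97 in WT (0.00859) and 1.83 in Irg1-/- (0.0149), from levels between 7.60 and 20.5 CPM to levels between 1.16 and 5.11 CPM. Its Irg1-/- call was lost with pool and replicate block together (adjusted p = 0.194). Mmadhc, which handles cobalamin inside the cell, rose at 3 h by 1.36 in WT (6.87e-04) and 0.91 in Irg1-/- (0.0186). The Irg1-/- rise missed the threshold with no filter on low counts (adjusted p = 0.0586) and with the library pool as a term (0.326). Mut, the cobalamin-dependent methylmalonyl-CoA mutase, fell at 3 h in Irg1-/- by 1.29 (0.00294), a call lost with the pool as a term (0.144). In WT it was higher at 24 h than at 3 h by 1.16 (0.00795) and lower after restimulation than at 24 h by 1.50 (0.00638), and 1 LPS 24h library at 198 CPM, beside 91.8 and 64.5 CPM, entered both. The decrease after restimulation missed the threshold with the compared groups alone in the fit (adjusted p = 0.126).

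Over the 12 WT libraries the genes whose level followed that of Acod1 most closely were the chemokine genes Cxcl3, Cxcl9 and Ccl7, the purine nucleoside phosphorylase gene Pnp2 and AA467197. Their Pearson correlations with Acod1 across libraries, on log2 CPM, were 0.991 for Cxcl3, 0.990 for Pnp2, 0.989 for AA467197, 0.987 for Cxcl9 and 0.987 for Ccl7. The 12 libraries form 4 treatment groups and share the same scaling, so these values mostly describe differences between the groups. For each of these genes the largest difference was that between Unstim. and the LPS groups. By Spearman's rank correlation the same 5 genes held places 27, 345, 191, 291 and 291 of 10750. The other 6 members correlated with Acod1 between -0.59 (Clybl) and 0.36 (Slc25a1). The mean level of Cxcl3 in WT was 0.370 CPM ± 0.154 (SD, n = 3) in Unstim., 213 ± 59.9 at 3 h, 42.4 ± 9.91 at 24 h and 136 ± 53.1 after restimulation. In Irg1-/- it was 0.834 ± 1.18, 170.4 ± 82.0, 12.6 ± 4.35 and 100.4 ± 86.0 CPM in the same order.

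Slc25a1 had its closest likeness, over all 24 libraries, with Fis1, a gene of mitochondrial fission, at a Pearson correlation of 0.881. Capns1 (0.871), Ap2m1 (0.862), Ddx39 (0.849) and Pitpna (0.834) followed. By rank correlation these 5 held places 11, 1, 7, 16 and 12 of 10779. Among the members, Slc25a1 correlated at 0.50 with Sucla2 and at -0.51 with Suclg2.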

How the data were processed

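The series held 24 libraries of BMDMs in 8 groups of 3 independent cultures, grouped by genotype and treatment as the labels give them. The authors made the libraries with barcoded oligo-dT primers and PCR, aligned the reads with STAR to mm10 and deposited 1 table of raw counts per gene and library, not normalized. The counting program, the annotation and the use of strand are not given in the sources used here, and the protocol names no molecular identifiers, so reads are not independent molecules. Of each column's total, 22.1% to 33.7% stood in a summary line for reads on no gene, 15.1% to 22.5% in one for reads not placed uniquely and 0.254% to 0.441% in one for ambiguous reads. These 5 summary lines entered neither library sizes nor tests. Symbols and coordinates were taken from GENCODE M21 (GRCm38.p6), and 21745 of 22165 identifiers carried a symbol.

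Counts were tested with edgeR 4.0.16 in R 4.3.3 by the quasi-likelihood test, with TMM scaling, a filter by filterByExpr, a model with 1 mean for each of the 8 groups and no covariate (16 residual degrees of freedom, also used for the 95% intervals), and Benjamini-Hochberg adjustment over the 11878 genes tested at 0.05. The log2 CPM used for likeness had a prior count of 2, and genes had a mean of at least 10 counts. Single values of 3 against 3 cultures cannot go below an exact permutation p of 0.1. On simulated counts for Irg1-/- against WT after LPS 24h (11630 genes), 18% of genes changed by a fold of 2 and 64.6% of those changed by a fold of 4 were called. No pair of replicates agreed within sampling noise (chi-square per degree of freedom 27.8 to 174.9).

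The members, the pathway lists and the tests were chosen with earlier results of these data known. The text names all members, the pathway genes past the threshold (at most 4 of a list with the largest change), the 5 genes most like Acod1 over WT libraries and Slc25a1 over all libraries, and cell type markers; a pathway gene past the threshold in 1 comparison is not reported here. Alternatives were DESeq2 1.42.0 (Wald test, or its size factors), other filters and scaling, fits to the compared groups alone, terms for replicate number or library pool, and leaving out each culture. Scaling without Acod1 was added after the data had been seen. Same-numbered cultures were not treated as paired: their deviations from the group means correlated at -0.10 to 0.34, and no comparison had all 3 above 0.1. These correlations do not show whether the cultures were paired. In each WT treatment with LPS, replicates 1, 2 and 3 were in pools 1, 2 and 4, so there same-numbered libraries shared a pool. Figures were drawn with matplotlib 3.10.9.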

Additional observations from a re-analysis of the deposited data

Results flagged for a closer look

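The response of Acod1 to LPS differed between the genotypes. The log2 fold change of LPS 3h against Unstim. in Irg1-/- minus that in WT was -11.02 (SE 0.78), and edgeR's quasi-likelihood test of this difference gave an adjusted p of 6.6e-11. For LPS 24h against Unstim. it was -9.22 (SE 0.75, edgeR adjusted p = 2.43e-09). Acod1 is the gene targeted in the Irg1-/- mice, so these values check the genotype labels of the libraries given LPS. They do not check those of the Unstim. libraries, where the Acod1 levels of the genotypes overlapped.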

How the results depend on the processing

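The number of members past the threshold kept within 1.5 times its value under all alternatives except these. With no filter on low counts it went from 1 to 2 for Irg1-/- against WT after LPS 24h->LPS 3h, from 2 to 1 for LPS 24h against Unstim. in WT, from 0 to 2 for restimulation against LPS 24h in WT, and from 0 to 1 for the difference between genotypes in the restimulation response against LPS 24h and against LPS 3h. With the library pool as a term it went from 2 to 1 for LPS 24h against Unstim. in WT and for LPS 24h against LPS 3h in Irg1-/-, from 0 to 1 for restimulation against LPS 24h in WT, and from 1 to 0 for restimulation against LPS 3h in Irg1-/-. Pool and replicate block together gave 1 for LPS 24h against LPS 3h in Irg1-/- and 1 for restimulation against LPS 24h in WT. DESeq2's Wald test gave 2 for the latter. Fitted to the compared groups alone, LPS 3h against Unstim. in Irg1-/- went from 1 to 0 and restimulation against LPS 24h in Irg1-/- from 0 to 2. The causes were not tested. The member counts here and below were not set against all genes called under the same alternative. They therefore do not tell a change in these members from a change in how many genes were called.

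The replicate numbers were not treated as pairs in the main fit. With the replicate block, 3 members passed for LPS 3h against Unstim. in Irg1-/- in place of 1, and 1 in place of 0 for restimulation against LPS 24h in Irg1-/-; with the block nested in genotype these counts were 2 and 1. The nested block could not be fitted for comparisons between genotypes, since its levels lie within 1 genotype.

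Without 1 culture, the count for Irg1-/- against WT remained at 0 in Unstim. and at 1 in each LPS treatment and in their mean, and the counts for differences in response remained at 1, 1, 0, 0 and 0. The counts were 1 to 2 for LPS 3h and for LPS 24h against Unstim. in WT and 0 to 1 and 1 to 1 in Irg1-/-, 2 to 3 in WT and 1 to 3 in Irg1-/- for LPS 24h against LPS 3h, 0 to 1 and 0 to 0 for restimulation against LPS 24h, and 1 to 2 and 0 to 2 for restimulation against LPS 3h. Acod1 in Irg1-/- against WT was -12.17 to -10.32 after LPS 3h, -9.23 to -8.78 after LPS 24h and -9.94 to -9.56 after restimulation.

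Values that changed sign had not passed, apart from Idh3a. With the pool as a term the mean genotype difference was -0.25 for Suclg1 and -0.050 for Auh, and in Irg1-/- Acod1 was 0.13 for LPS 24h against Unstim. and -0.79, and Idh3a 0.44, for restimulation against LPS 3h. With pool and replicate block these were -0.18 for Suclg1, 0.34 and -0.67 for Acod1 and 0.92 for Idh3a, and with the nested block Acod1 in Irg1-/- was -0.047 for LPS 3h against Unstim. Without 1 culture, the mean genotype difference ranged from -0.23 to 0.025 for Slc25a1, -0.092 to 0.26 for Suclg1 and -0.40 to 0.22 for Sucla2, and Acod1 in Irg1-/- ranged from -0.97 to 0.88 (LPS 3h against Unstim.), -0.39 to 0.014 (LPS 24h against Unstim.), -1.06 to 0.79 (LPS 24h against LPS 3h) and -0.33 to 1.52 (restimulation against LPS 3h).

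Over all genes, Irg1-/- against WT after LPS 24h called 71 genes, and 246 with no filter, 234 in DESeq2, 12 with the pool as a term and 3 with only the compared groups. The pool shared few libraries of the same treatment between genotypes, so genotype and pool were only partly told apart. Members other than Acod1 had levels of 3.97 to 62.5 CPM apart from 1 library, and differences by a fold of 2 were often below what 3 cultures could show.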
